A study of Mus musculus with 8 samples.

Results

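For each gene of mouse dorsal root ganglia, the response to inflammation in mice lacking G9a in sensory neurons was compared with the response in wild-type mice. The quantity compared was the log2 change from vehicle to complete Freund's adjuvant (CFA) in the knockout minus the same change in wild type, called the interaction below, so a positive value means that the response lay higher in the knockout. Every gene with enough reads entered the test, 20235 of the 25780 counted. The filter asked for reads in as many libraries as a group holds, so a gene could enter through the group where it was high. The contrast, the gene lists and the rule for naming genes were chosen with earlier results of these data known. The 8 libraries, 2 per group, came from total RNA of ganglia collected 14 days after an injection into the left paw. WT-Veh and WT-CFA were littermates without Cre that received vehicle or CFA and whose alleles of G9a the labels do not describe. G9a-iKO-Veh and G9a-iKO-CFA, written iKO-Veh and iKO-CFA here, carried G9aflox/flox and Avil-iCreERT2/AJwo, an inducible Cre under the promoter of Avil, a gene of sensory neurons. The deletion was therefore aimed at neurons, not at the glia, vessels or immune cells of the ganglion. The labels give no dose, induction scheme, age or sex, nor the side and levels of the ganglia, and do not say whether each library came from its own animal, so the p-values speak only of the spread between libraries, which may be technical. The title of the series names Trpa1 and Trpv1, and the design puts the question of whether their response to CFA depends on G9a.

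G9a, encoded by Ehmt2, is the H3K9 methyltransferase that places the mono- and dimethyl marks of repressed chromatin. CFA is an oil suspension of killed mycobacteria that inflames the injected paw for weeks, and nociceptors, the sensory neurons of painful stimuli, respond to it with altered levels of channels and peptides. Dorsal root ganglia hold the cell bodies of these neurons, wrapped by satellite glia and accompanied by Schwann cells, vessels, fibroblasts and macrophages. An interaction can come from a change in either genotype, so the levels in all 4 groups are given with it, in CPM, the read count scaled to the library's total.

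Depth ran from 26312614 to 42971823 reads, and the libraries of WT-Veh stood apart from all others. In 37.7% of the tested genes both WT-Veh libraries lay above or below the 6 others, against 8.09% for WT-CFA, 16.9% for iKO-Veh and 14.4% for iKO-CFA. WT-Veh 1 also held skeletal muscle transcripts, with 709 CPM summed over 17 genes against 80.6 to 167 in the other libraries. The WT-CFA libraries differed from each other by a median of 0.595 on the log2 scale, against 0.171 to 0.285 in the other groups. WT-CFA 2 held 1654 CPM of 11 red cell genes and 132944 CPM of mitochondrial transcripts, against 219.6 and 43800.2 CPM in WT-CFA 1. Pan-neuronal markers, summed over 20 of 20 genes, differed between groups. They were at 8860.0 and 10948 CPM in WT-Veh, 17708 and 13654 in WT-CFA, 16927 and 16730 in iKO-Veh and 12991 and 12788 in iKO-CFA. Ehmt2 was at 74.4 and 65.4 CPM in WT-Veh, 74.2 and 61.3 in WT-CFA, 34.0 and 31.6 in iKO-Veh and 44.95 and 44.2 in iKO-CFA. All 4 iKO libraries lay below all 4 WT libraries. Its interaction of 0.49 ± 0.25 did not pass (adjusted p = 0.214), although it passed without WT-CFA 1 (adjusted p = 0.0355).

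The response to CFA differed between genotypes at 1895 of 20235 genes (9.36%) by edgeR's quasi-likelihood test with Benjamini-Hochberg adjustment at 0.05. The response lay higher in iKO for 1253 genes (6.19%) and lower for 642 (3.17%), and 6277 genes had an unadjusted p under 0.05. The higher share was 66.1% of the calls, against 55.2% in DESeq2. The interaction exceeded 1 on the log2 scale in either direction at 1841 of the 1895. Among the higher calls the median WT response was -1.91, the median iKO response 1.10 and the median interaction 3.16. Among the lower calls the same medians were 0.89, -0.45 and -1.40, and over all tested genes -0.03, -0.0011 and -0.04. The responses had opposite signs in 1137 of the higher and 579 of the lower calls.

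In most of the calls the WT-Veh libraries stood apart. Of the 1253 higher calls, 932 (74.4%) had a fall with CFA in WT that itself passed, where 8.71% of all tested genes did, and in 898 (71.7%) both WT-Veh libraries lay above the 6 others, as in 20.6% of all tested genes. Of the 642 lower calls, 424 (66.0%) had a WT rise that passed, against 8.12% of all genes, and in 463 (72.1%) both WT-Veh libraries lay lowest, against 17.1%. The other groups stood apart in fewer. Among the higher calls WT-CFA lay lowest in 219 (4.58% of all genes), iKO-Veh lowest in 229 (7.04% of all genes) and iKO-CFA highest in 151 (7.56% of all genes). Among the lower calls iKO-Veh lay highest in 223 (9.81% of all genes), WT-CFA highest in 102 (3.51%) and iKO-CFA lowest in 47 (6.81%). Under vehicle the genotypes differed at 1026 of the higher and 529 of the lower calls, where 17.6% of all tested genes did (8.28% higher and 9.33% lower in iKO). Under CFA they differed at 135 and 21 of them, where 1.7% of all genes did (1.5% higher and 0.208% lower). The interaction contrast contains each of these contrasts, so the shares describe the calls and are no separate evidence. In WT the CFA response passed at 3406 genes (16.8%). In iKO it passed at 8 genes (0.0395%), all higher, with 5791 at an unadjusted p under 0.05. That count moved with the tool, the filter and the libraries fitted. It was 0 with a filter at a mean of 5 CPM or with a replicate block, and 7 with RLE scaling. It was 26 in limma-voom, 181 with the newer edgeR estimates, 510 with no filter and 3449 in DESeq2. The count rose without either WT-CFA library and fell without either WT-Veh library or any iKO library. With the 4 iKO libraries fitted alone, 4028 genes passed as higher and 4294 as lower.

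**Figure D1:**
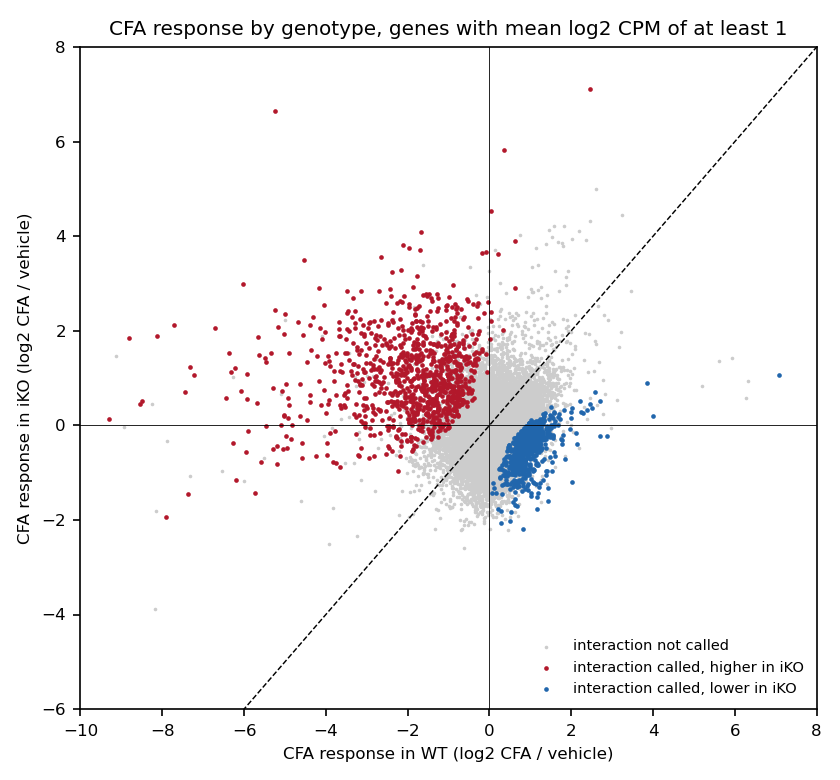
Each point is 1 of 14060 genes with a mean log2 CPM of at least 1, placed by its CFA response (log2 CFA over vehicle) in WT on the x axis and in iKO on the y axis, and 9 genes lie outside the axes. Red genes had an interaction called higher in iKO, blue genes lower, and grey genes were not called. The red points spread to the left, where CFA libraries lay below vehicle in WT, the blue points sit in a narrow band to the right, and the dashed line marks equal responses.

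The calls depended on which libraries were fitted. A group left with a single library adds nothing to the shared estimate of spread, and the WT-CFA libraries differed most from each other. The part of this in the counts was not tested. The count of calls rose without either WT-CFA library and fell without either WT-Veh library or any iKO library. Leaving out an iKO library left between 299 and 478, of which between 5 and 19 were lower. Under 16 alternatives of scaling, filter, tool and left-out library, the 1895 genes kept the sign of their interaction in every fit that included them. The filter at 5 CPM kept 12148 genes, so not every called gene was fitted there. Some genes were called whichever library was left out, nearly all of them higher. The 3 lower ones were Ndufs5-ps, Gm11223 and Gapdh, the glycolytic enzyme widely used as a reference gene, the latter pair named after their values were seen. Gapdh was at 57.1 and 58.7 CPM in WT-Veh, 205 and 197 in WT-CFA, 225 and 202 in iKO-Veh and 189 and 179.7 in iKO-CFA. Both WT-Veh libraries lay far below the 6 others, with iKO-CFA next lowest, and its interaction was -2.01 ± 0.24 (adjusted p = 0.00352). Gm11223, an unnamed gene model, was at 45.1 to 48.3 CPM in the WT-CFA libraries and 2.59 to 3.34 in the 6 others, with an interaction of -3.78 ± 0.30 (adjusted p = 0.00117).

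**Figure D2:**
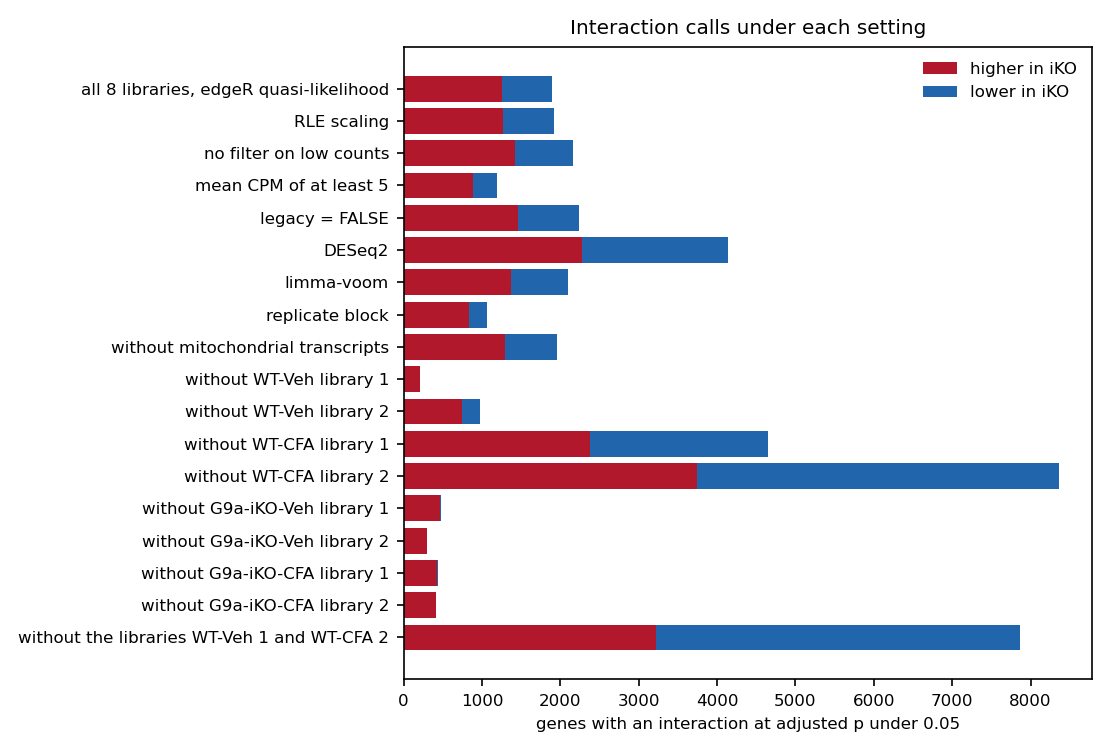
Bars give the number of genes with an interaction at an adjusted p under 0.05 (x axis) under each setting (y axis), with genes higher in iKO in red and lower in blue. The count ranged from 212 without WT-Veh 1 to 8366 without WT-CFA 2, and lower calls all but vanished when WT-Veh 1 or any iKO library was left out.

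The transduction channels, which turn heat, irritants, acid and touch into current, had 5 lower and 2 higher calls among 30 members (3.17% and 6.19% of all genes). Their median interaction was -0.93, and that of the 20 pan-neuronal markers was -1.16. The part of neuronal RNA as a whole in the channel values was not tested. Trpa1, the irritant-gated channel, was at 40.7 and 58.1 CPM in WT-Veh, 124 and 77.2 in WT-CFA, 87.9 and 74.5 in iKO-Veh and 54.7 and 57.5 in iKO-CFA. Its WT-CFA libraries lay above its WT-Veh libraries and its iKO-CFA libraries below its iKO-Veh libraries, with iKO-CFA at the level of WT-Veh 2. The interaction was -1.56 ± 0.37 (adjusted p = 0.0384). Trpv1, the capsaicin and heat receptor, was at 66.7 and 98.0 CPM in WT-Veh, 199 and 182 in WT-CFA, 130.4 and 139.6 in iKO-Veh and 142 and 139 in iKO-CFA. Here the 4 iKO libraries lay within 130.4 to 142 CPM, above both WT-Veh and below both WT-CFA libraries, and the interaction was -1.15 ± 0.30 (adjusted p = 0.0473). The acid-sensing channels Asic1 and Asic3 gave -1.85 ± 0.38 and -1.57 ± 0.36 (adjusted p = 0.0244 and 0.0348), and Trpm4, a calcium-activated cation channel, -1.03 ± 0.24 (adjusted p = 0.0377). Asic3 was at 34.9 and 39.9 CPM in WT-Veh, 69.7 and 39.3 in WT-CFA, 103 and 109.6 in iKO-Veh and 51.7 and 52.6 in iKO-CFA. Both iKO-Veh libraries were highest for it, and WT-CFA 2 lay level with WT-Veh 2. The higher calls were Piezo1, a pressure-gated channel, at 2.22 ± 0.35 and the ATP-gated P2rx7 at 1.65 ± 0.38 (adjusted p = 0.00984 and 0.0345), and for both the WT-Veh libraries lay above all others.

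Of the 7 called channels, the call was lost in 7 without WT-Veh 1, 3 without WT-Veh 2, 6 without iKO-Veh 1, 7 without iKO-Veh 2, 6 without iKO-CFA 1 and 6 without iKO-CFA 2 (adjusted p up to 0.193), and with all libraries in 2 with a filter at 5 CPM (up to 0.0680). Trpa1 and Trpv1 lost theirs without WT-Veh 1 (adjusted p = 0.178 and 0.181), iKO-Veh 1 (0.151 and 0.157), iKO-Veh 2 (0.117 and 0.178), iKO-CFA 1 (0.144 and 0.160) or iKO-CFA 2 (0.144 and 0.191). Trpa1 also lost it without WT-Veh 2 (adjusted p = 0.0519). With a filter at 5 CPM Trpv1 lost its call (0.0652) and Trpa1 did not (0.0484). Both passed without either WT-CFA library, in fits where WT-CFA rests on a single library. Without WT-CFA 2 their interactions were -1.86 and -1.21. Their interaction was negative in every fit run. Of the 30 channels, more passed without WT-CFA 2 and fewer without WT-Veh 1, and the same held over all tested genes.

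**Figure D3:**
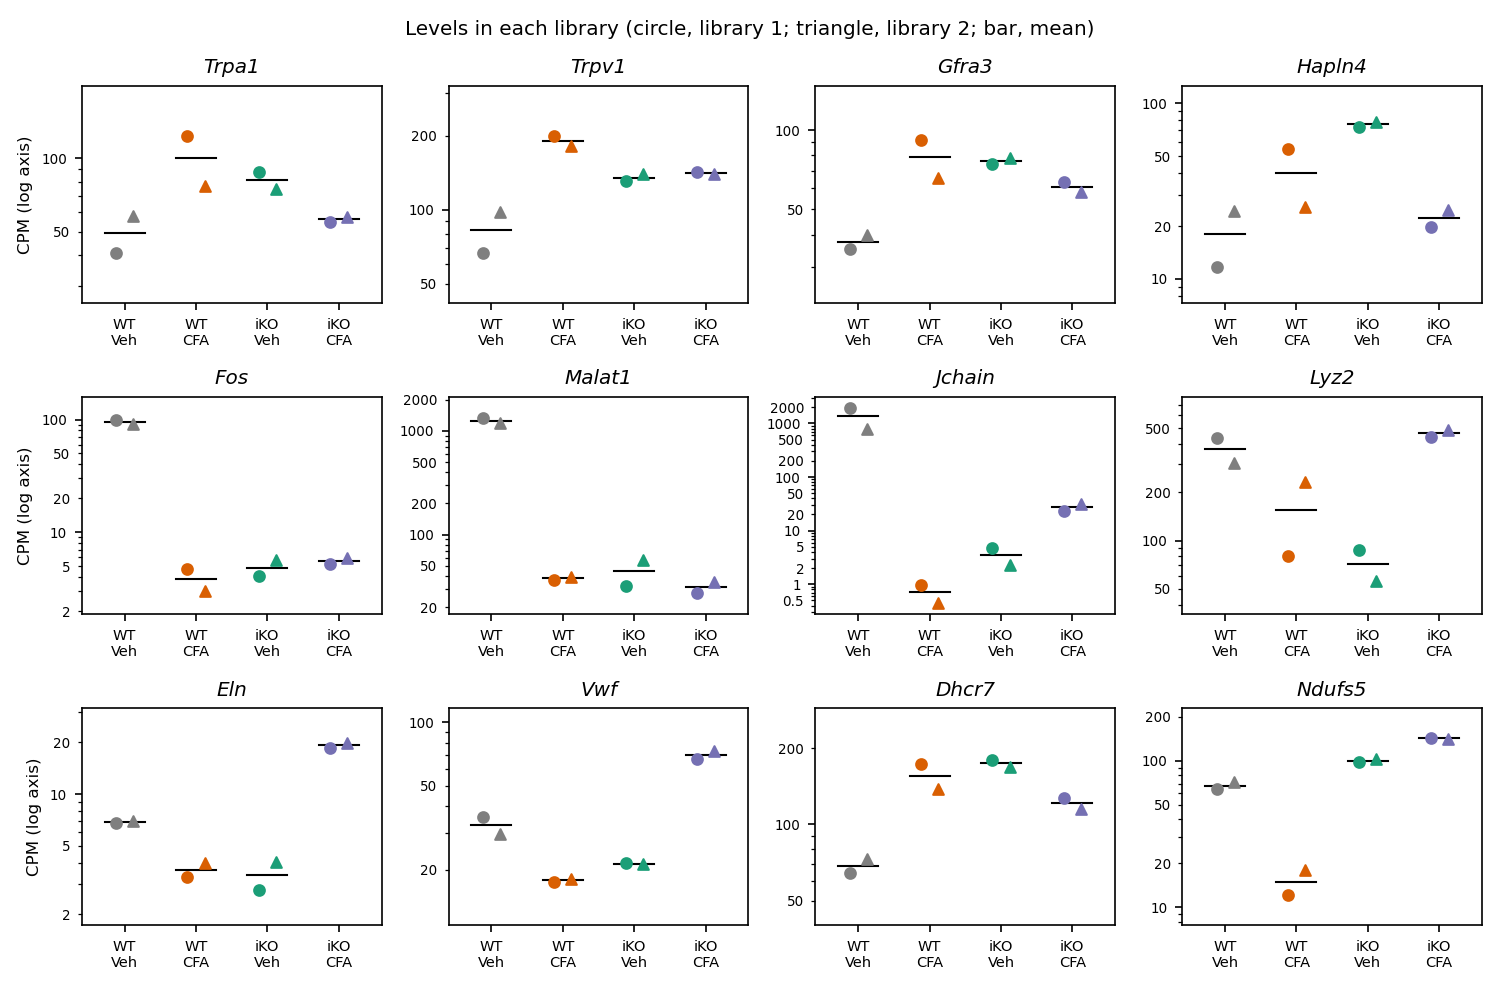
CPM (log axis) of 12 genes in each library, with 2 libraries per group (circle, library 1; triangle, library 2) and a bar at their mean. Trpv1, Gfra3 and Dhcr7 were lowest in WT-Veh, Fos, Malat1 and Jchain were highest there by a wide margin, Hapln4 differed between the WT-CFA libraries (54.9 against 25.6 CPM), and Eln and Vwf were highest in iKO-CFA.

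Sodium, potassium and calcium channel genes and the glutamate and GABA receptors had lower calls only. The calls were lower (3.17% of all genes) for 3 of 15 sodium channel genes (median interaction -1.38), 7 of 52 potassium channel genes (-1.01), 2 of 18 calcium channel genes (-1.05) and 3 of 33 glutamate and GABA receptor genes (-0.92), with 0 higher calls in these 4 lists. Scn9a, the Nav1.7 channel that sets the firing threshold of nociceptors, was at 282 and 369 CPM in WT-Veh, 532 and 329 in WT-CFA, 457 and 427 in iKO-Veh and 229 and 198 in iKO-CFA. WT-CFA 1 and both iKO-Veh libraries were high, while WT-CFA 2 lay within the range of WT-Veh, and the interaction was -1.45 ± 0.37 (adjusted p = 0.0444). Scn1a gave -1.49 ± 0.37 (adjusted p = 0.0418).

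Among the potassium channel list the smallest p belonged to the calcium-activated channel subunit Kcnmb1, at -1.28 ± 0.23 (adjusted p = 0.0143), and the pacemaker channel Hcn2, at -2.33 ± 0.44 (0.0179). Hcn2 was at 37.9 and 55.5 CPM in WT-Veh, 159 and 82.6 in WT-CFA, 196 and 205 in iKO-Veh and 98.6 and 107 in iKO-CFA. Both WT-Veh libraries lay lowest and both iKO-Veh libraries highest, with WT-CFA 2 below iKO-CFA. Kcnmb1 was at 24.7 to 25.1 CPM in WT-Veh, 45.8 to 48.3 in WT-CFA, 129 to 132 in iKO-Veh and 96.8 to 106 in iKO-CFA, so every iKO library lay above every WT library. Kcns1, a modulatory subunit, Kcnk18, a background potassium channel of nociceptors, Kcnh2 and Kcnh5 had interactions from -2.35 to -1.63 (adjusted p = 0.0318 to 0.0435). The calcium channel subunits Cacng5 and Cacnb1 passed narrowly (adjusted p = 0.0418 and 0.0497).

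Among receptors, Grin1, the obligatory subunit of NMDA receptors, was at 22.8 and 38.1 CPM in WT-Veh, 93.1 and 45.7 in WT-CFA, 102 and 100.4 in iKO-Veh and 41.3 and 33.9 in iKO-CFA, with an interaction of -2.62 ± 0.50 (adjusted p = 0.0183). Only the iKO-Veh libraries and WT-CFA 1 were high. Gabbr1, a GABA-B receptor subunit, gave -1.53 ± 0.37 (adjusted p = 0.0388). In the opioid and cannabinoid list 3 of 15 members were lower, the cannabinoid receptor Cnr1 (-1.48 ± 0.33), the nociceptin receptor Oprl1 (-1.50 ± 0.39) and Dagla, which makes an endocannabinoid (-1.35 ± 0.35), with adjusted p of 0.0321, 0.0481 and 0.0462. Cnr2, the cannabinoid receptor of immune cells, was the only higher call, at 4.84 ± 1.05 (adjusted p = 0.0290), and the list's median interaction was -0.50. Over all genes 3.17% were called lower and 6.19% higher. Of the 15 lower genes named from the sodium channels to Dagla, the call was lost in 15 without WT-Veh 1, 10 without WT-Veh 2, 15 without iKO-Veh 1, 15 without iKO-Veh 2, 15 without iKO-CFA 1 and 14 without iKO-CFA 2 (adjusted p up to 0.225), and with all libraries in 1 with RLE scaling, 9 with a filter at 5 CPM, 1 with limma-voom and 1 without mitochondrial transcripts (up to 0.0865). Without WT-CFA 2 more sodium, potassium and calcium channel genes passed, as did more of all tested genes.

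Genes that define neuron classes were called lower at more than the 3.17% of all genes in several lists. Large myelinated neurons had 5 of 19 (median interaction -1.25), peptidergic nociceptors 3 of 17 (-0.81), the neurotrophin list 3 of 16 (-1.24) and pan-neuronal markers 4 of 20 (-1.16). Gfra3, the artemin receptor of peptidergic nociceptors, was at 35.1 and 39.7 CPM in WT-Veh, 92.0 and 65.8 in WT-CFA, 74.5 and 78.0 in iKO-Veh and 63.6 and 57.9 in iKO-CFA. The WT-Veh libraries lay below the 6 others, and the interaction was -1.40 ± 0.28 (adjusted p = 0.0233). Gfra4, the persephin receptor, gave -1.28 ± 0.34 (adjusted p = 0.0494). Mrgprx1, an itch receptor of non-peptidergic neurons, was at 8.98 to 13.1 CPM in WT-Veh and 24.1 to 37.8 elsewhere (-1.45 ± 0.30, adjusted p = 0.0247). Its relative Mrgprb5 was the exception, at 1.95 ± 0.41 (adjusted p = 0.0268). These were the 2 calls among 21 non-peptidergic genes, 1 each way (median interaction -0.93), where 6.19% of all genes were called higher. Of the pair Cnr2 and Mrgprb5 the call was lost in 2 without WT-Veh 1, 2 without WT-Veh 2, 2 without iKO-Veh 1, 2 without iKO-Veh 2, 2 without iKO-CFA 1 and 2 without iKO-CFA 2 (adjusted p up to 0.132).

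In the large myelinated class the smallest p belonged to Slc17a7, the vesicular glutamate transporter, at 75.4 and 104 CPM in WT-Veh, 218 and 158 in WT-CFA, 247 and 283 in iKO-Veh and 131 and 140.1 in iKO-CFA, with an interaction of -2.03 ± 0.33 (adjusted p = 0.0107). It was highest in iKO-Veh and lowest in WT-Veh. Cntnap2 of the juxtaparanode, the transcription factor Etv1 and the neurofilament Nefl had interactions from -1.85 to -1.41, and the pan-neuronal Tubb3, Uchl1, Thy1 and Isl1 from -1.33 to -1.02 (adjusted p = 0.0165 to 0.0428). Tubb3, neuronal beta-tubulin, was at 1653 to 1956 CPM in WT-Veh, 2836 to 3723 in WT-CFA, 3742 to 3771 in iKO-Veh and 2707 to 2711 in iKO-CFA. Its pseudogene Tubb3-ps1 was at 0.160 to 1.23 CPM. Of the 11 lower genes of the neuron classes named here the call was lost in 11 without WT-Veh 1, 3 without WT-Veh 2, 10 without iKO-Veh 1, 11 without iKO-Veh 2, 11 without iKO-CFA 1 and 11 without iKO-CFA 2 (adjusted p up to 0.221), and with all libraries in 1 with RLE scaling, 4 with a filter at 5 CPM, 3 with the newer edgeR estimates and 1 without mitochondrial transcripts (up to 0.0845). In the C-LTMR list of low-threshold C fibres 0 of 8 passed by edgeR or DESeq2, with 1 at an unadjusted p under 0.05 by edgeR, and the smallest p belonged to Th at -1.26 ± 0.60 and Zfp521 at -0.95 ± 0.41 (adjusted p = 0.189 and 0.156).

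The largest lower interactions at a mean log2 CPM of at least 5 were those of Hapln4, a matrix link protein, Sez6l2, Grin1, Disp2, Ncdn, Disp3, Prrt3, Scrt1 and Hcn2 among others, with interactions from -2.93 to -2.33. Hapln4 was at 11.7 and 24.5 CPM in WT-Veh, 54.9 and 25.6 in WT-CFA, 73.3 and 78.3 in iKO-Veh and 19.6 and 24.7 in iKO-CFA. WT-CFA 1 was high with both iKO-Veh libraries, WT-CFA 2 lay near WT-Veh 2 and iKO-CFA, and the interaction was -2.93 ± 0.58 (adjusted p = 0.0215). Sez6l2, a neuronal membrane protein, was at 59.4 and 72.3 CPM in WT-Veh, 202 and 93.9 in WT-CFA, 202 and 212 in iKO-Veh and 74.1 and 70.0 in iKO-CFA and gave -2.69 ± 0.45 (adjusted p = 0.0121). The low-level genes Slc34a2, a phosphate transporter, Gal3st3, a sulfotransferase, Sapcd1, Kcne1l, Pcdha12, a clustered protocadherin, and the receptor Nptxr had interactions from -3.22 to -2.56 (adjusted p = 0.0131 to 0.0357). Magea13, of a family normally limited to the germ line, was at 0.0335 and 0.0298 CPM in WT-Veh, 0.401 and 0.616 in WT-CFA, 6.67 and 8.55 in iKO-Veh and 14.8 and 13.7 in iKO-CFA. Every iKO library lay far above every WT library, and with 2 reads in WT-Veh together no fold is given for it (adjusted p = 0.0318). Of these 16 genes the call was lost in 16 without WT-Veh 1, 7 without WT-Veh 2, 15 without iKO-Veh 1, 16 without iKO-Veh 2, 16 without iKO-CFA 1 and 16 without iKO-CFA 2 (adjusted p up to 0.222), and with all libraries in 2 with a filter at 5 CPM, 1 with the newer edgeR estimates and 3 with limma-voom (up to 0.191).

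Immune genes had higher calls well above the 6.19% of all genes. The response lay higher in iKO for 15 of 22 T and NK cell genes, 10 of 17 B and plasma cell genes, 17 of 26 macrophage genes, 16 of 39 cytokines and chemokines, 12 of 20 complement genes, 10 of 19 MHC genes and 17 of 44 interferon response genes, and lower for 0 in any of these. In ganglion tissue, fewer cells of a type and less RNA per cell cannot be told apart. Jchain, the joining chain of secreted antibodies, was at 1944 and 780.1 CPM in WT-Veh, 0.961 and 0.445 in WT-CFA, 4.73 and 2.30 in iKO-Veh and 23.4 and 31.5 in iKO-CFA. Both WT-Veh libraries lay far above the rest, WT-CFA was lowest, and iKO-CFA lay above iKO-Veh. Its interaction was 13.84 ± 0.89 (adjusted p = 0.000838). Mzb1, a plasma cell chaperone, was at 94.1 and 36.6 CPM in WT-Veh, at 0 in both WT-CFA libraries and at 0.172 to 1.18 CPM in iKO, and no fold is given against a group at 0 (adjusted p = 0.00153). The files list antibody loci as Igh, Igk and Igl, and Igh was at 394 and 160.2 CPM in WT-Veh and 5.30 to 11.2 in the 6 others (6.15 ± 0.55, adjusted p = 0.00168). Igk, at 209 and 75.9 CPM against 0.427 to 8.17, gave 7.01 ± 1.02 (adjusted p = 0.00750). Cd79b of the B cell receptor complex, the B cell factor Pax5 and Derl3 of the secretory pathway passed with interactions from 4.54 to 7.24 (adjusted p = 0.00241 to 0.0113).

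The T cell gene Cd4 had the same order of groups. Cd4, the helper cell coreceptor, was at 16.6 and 10.3 CPM in WT-Veh, 0.881 and 0.376 in WT-CFA, 2.35 and 1.95 in iKO-Veh and 3.16 and 3.54 in iKO-CFA, with an interaction of 5.02 ± 0.60 (adjusted p = 0.00362), and only WT-Veh stood above the others. Il2rb, an interleukin receptor chain, Nkg7 of cytotoxic granules and Cd28 gave 6.21 ± 0.71, 7.59 ± 0.81 and 6.80 ± 0.91 (adjusted p = 0.00323, 0.00241 and 0.00538). Icos, Il7r, Ctla4 and Lax1 of T cells, the B cell chemokine Cxcl13, Igl and the ubiquitin-like Ubd each had a group with no read. They were at 5.03 to 39.3 CPM in WT-Veh and at 0 to 1.40 in the rest (adjusted p = 0.00168 to 0.0268). The guanylate-binding protein Gbp10 and the lymphocyte genes Rasal3 and Rgs1 had at most 3 reads in a group and passed as well (adjusted p = 0.00896, 0.00326 and 0.00352). The T and NK list had a median interaction of 6.24, with groups at 0 set to 3 reads as well, and the B and plasma list 5.69, or 4.87 with groups at 0 set to 3 reads. Of the 11 B, plasma, T and NK cell genes of the lists named and the 3 antibody loci, 14 in all, the call was lost in 4 without WT-Veh 1, 1 without iKO-Veh 2 and 1 without iKO-CFA 1 (adjusted p up to 0.0874). Of Cxcl13, Ctla4, Lax1, Ubd, Gbp10, Rasal3 and Rgs1 it was lost in 4 without WT-Veh 1, 1 without WT-Veh 2, 1 without iKO-Veh 1, 1 without iKO-Veh 2, 1 without iKO-CFA 1 and 2 without iKO-CFA 2 (adjusted p up to 0.9999), and with all libraries in 1 with limma-voom (up to 0.0863). The summed level of the 22 T and NK genes was 121 to 149 CPM in WT-Veh and 10.4 to 28.4 in WT-CFA, against 52.7 to 52.9 in iKO-Veh and 50.5 to 52.1 in iKO-CFA.

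Macrophage genes differed in where the iKO-CFA libraries lay. Lyz2, lysozyme of myeloid cells, was at 432 and 306 CPM in WT-Veh, 80.0 and 229.7 in WT-CFA, 87.3 and 55.9 in iKO-Veh and 443 and 488 in iKO-CFA. The order was low in iKO-Veh and WT-CFA 1, intermediate in WT-CFA 2 and high in WT-Veh and iKO-CFA, and the interaction was 3.95 ± 0.64 (adjusted p = 0.0109). Ctss, a lysosomal protease of antigen-presenting cells, and Mpeg1, a pore-forming protein of macrophages, gave 3.92 ± 0.63 and 4.10 ± 0.64 (adjusted p = 0.0104 and 0.00959), and Itgam, Ms4a7 and the endotoxin coreceptor Cd14 2.85 ± 0.49, 3.38 ± 0.54 and 3.31 ± 0.44 (adjusted p = 0.0131, 0.00988 and 0.00538). Itgam was at 12.4 and 11.2 CPM in WT-Veh, 3.82 and 8.69 in WT-CFA, 6.47 and 5.54 in iKO-Veh and 22.8 and 22.97 in iKO-CFA. In it iKO-CFA stood above all other libraries, WT-Veh included. Cd14, in contrast, was at 30.2 and 33.6 CPM in WT-Veh, 4.59 and 6.54 in WT-CFA, 4.34 and 2.67 in iKO-Veh and 7.08 and 5.04 in iKO-CFA, and Ctss at 204 and 137 CPM in WT-Veh, 15.8 and 37.0 in WT-CFA, 26.6 and 13.5 in iKO-Veh and 41.3 and 52.5 in iKO-CFA. For both, WT-Veh stood far above the 6 other libraries. The 26 macrophage genes had a median interaction of 2.71, with medians of -0.94 for the WT response and 1.55 for the iKO response. Of the 6 genes named, the call was lost in 5 without WT-Veh 1, 1 without iKO-Veh 1, 4 without iKO-Veh 2, 1 without iKO-CFA 1 and 4 without iKO-CFA 2 (adjusted p up to 0.0863).

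Of 20 neutrophil and mast cell genes 2 were called higher (6.19% of all genes), with a median interaction of 2.18. Csf3r, the receptor that supports neutrophils, was at 8.58 and 5.21 CPM in WT-Veh, 0.908 and 3.39 in WT-CFA, 1.299 and 0.631 in iKO-Veh and 12.8 and 12.5 in iKO-CFA, with an interaction of 5.39 ± 0.85 (adjusted p = 0.00961). Mmp9, a granule protease, was at 1.52 to 2.38 CPM in WT-Veh, 1.18 to 4.86 in WT-CFA, 2.53 to 5.07 in iKO-Veh and 55.0 to 59.6 in iKO-CFA (3.29 ± 0.82, adjusted p = 0.0428). Both were highest in iKO-CFA, and of the pair the call was lost in 2 without WT-Veh 1, 1 without WT-Veh 2, 1 without iKO-Veh 1, 2 without iKO-Veh 2, 1 without iKO-CFA 1 and 1 without iKO-CFA 2 (adjusted p up to 0.209), and with all libraries in 1 with a filter at 5 CPM (up to 0.0541). The summed level of the 20 genes was 1745 to 1756 CPM in iKO-CFA and 117 to 342 in the 6 others. The summed level of red cell genes was high in the same libraries, at 1652 to 1767 CPM in iKO-CFA and 1654 in WT-CFA 2 against 186 to 463 in the 5 remaining libraries. Of the 11 red cell genes 0 passed by edgeR, DESeq2 or limma-voom, with 0 at an unadjusted p under 0.05 by edgeR, and Bpgm, a red cell metabolic enzyme, gave 0.36 ± 0.49 (adjusted p = 0.648). Red cell and granulocyte transcripts moved with the iKO-CFA values, and their part in the immune calls was not tested.

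Among secreted mediators, C3, the central complement component, was at 167 and 110.1 CPM in WT-Veh, 6.52 and 9.82 in WT-CFA, 16.3 and 5.05 in iKO-Veh and 36.0 and 40.4 in iKO-CFA. WT-Veh stood above all, and iKO-CFA above iKO-Veh and WT-CFA, with an interaction of 5.92 ± 0.70 (adjusted p = 0.00357). Cfb, C5ar1, Cfp, C1s1 and C1ra followed with 3.83 ± 0.28, 4.07 ± 0.48, 3.76 ± 0.61, 2.74 ± 0.45 and 2.59 ± 0.55 (adjusted p = 0.00108 to 0.0268). Il1b, the inflammatory cytokine, was at 13.1 and 8.88 CPM in WT-Veh, 0.401 and 0.445 in WT-CFA, 0.172 and 0.431 in iKO-Veh and 1.296 and 1.43 in iKO-CFA, with an interaction of 6.88 ± 0.67 (adjusted p = 0.00204). The chemokines Ccl5, Ccl7 and Ccl8 gave 7.34 ± 1.06, 5.53 ± 0.75 and 9.01 ± 1.20 (adjusted p = 0.00736, 0.00561 and 0.00538). Osm, a cytokine, and Ptgs2, cyclooxygenase 2, had 2 and 1 reads in their lowest group and passed too (adjusted p = 0.00240 and 0.00414). Of the antigen presentation genes, the MHC class II invariant chain Cd74 was at 762 and 541 CPM in WT-Veh, 84.0 and 194 in WT-CFA, 168 and 80.1 in iKO-Veh and 230.0 and 256 in iKO-CFA, with an interaction of 3.20 ± 0.63 (adjusted p = 0.0209). H2-Aa, H2-Ob, H2-M3, and the class I and class II transactivators Nlrc5 and Ciita passed with interactions from 1.96 to 7.11 (adjusted p = 0.00450 to 0.0212).

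In the interferon response the smallest p belonged to Gbp4, a guanylate-binding protein, at 91.5 and 54.9 CPM in WT-Veh and 1.23 to 7.15 elsewhere (6.91 ± 0.64, adjusted p = 0.00172). Irf8, Irf1, Tap1, Gbp7 and Oas2 followed at 4.40 ± 0.59, 2.53 ± 0.40, 2.89 ± 0.39, 2.58 ± 0.38 and 5.36 ± 0.87 (adjusted p = 0.00538 to 0.0109). Of the 24 complement, cytokine, MHC and interferon genes named, the call was lost in 11 without WT-Veh 1, 2 without iKO-Veh 1, 9 without iKO-Veh 2, 4 without iKO-CFA 1 and 6 without iKO-CFA 2 (adjusted p up to 0.145). The interferon list was low in iKO-Veh 2, at 798 CPM summed over 44 genes against 1403 in iKO-Veh 1. Interferon acts through a promoter element called ISRE, searched here as GAAA, any 2 bases and GAAA on both strands of the 250 bases before each start in RefSeq (GRCm38.p6), where 2.98% of 32851 promoters and 3.46% of 27025 genes hold it. Of the 31 list members matched to a promoter, 15 held it (48.4%), and of the 11 matched members called higher, 6 did. The promoters of Gbp7, Gbp2 and Irgm1 are shown because these called genes hold the element, in capitals (chr3:142530086-142530335 on the plus strand, chr3:142620413-142620662 on the plus strand and chr11:48871421-48871670 on the minus strand), and Gbp2 and Irgm1 were picked for it after their values were seen. A match describes letters and not binding.
Gbp7: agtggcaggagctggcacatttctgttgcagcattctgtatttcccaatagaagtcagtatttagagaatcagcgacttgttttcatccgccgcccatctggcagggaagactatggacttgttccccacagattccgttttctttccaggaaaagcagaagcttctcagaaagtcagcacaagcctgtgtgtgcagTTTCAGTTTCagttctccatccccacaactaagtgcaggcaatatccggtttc
Gbp2: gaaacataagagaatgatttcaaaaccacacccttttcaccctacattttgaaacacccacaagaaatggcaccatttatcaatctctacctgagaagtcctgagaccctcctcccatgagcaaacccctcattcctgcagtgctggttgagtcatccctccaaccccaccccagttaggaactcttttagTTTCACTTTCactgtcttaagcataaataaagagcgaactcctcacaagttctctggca
Irgm1: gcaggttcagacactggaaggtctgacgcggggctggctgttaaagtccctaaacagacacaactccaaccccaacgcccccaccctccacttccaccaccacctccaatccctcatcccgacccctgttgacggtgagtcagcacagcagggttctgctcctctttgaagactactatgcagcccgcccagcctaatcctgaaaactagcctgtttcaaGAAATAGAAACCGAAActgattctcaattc

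Immediate early genes, the transcription factors and regulators switched on within minutes of a stimulus, had 20 higher and 0 lower calls among 36 (6.19% of all genes higher; median interaction 1.99). Fos was at 99.1 and 91.9 CPM in WT-Veh, 4.70 and 3.01 in WT-CFA, 4.09 and 5.63 in iKO-Veh and 5.21 and 5.87 in iKO-CFA. Only WT-Veh stood out, the 6 other libraries lay close together, and the interaction was 4.81 ± 0.37 (adjusted p = 0.00108). Ccn1, a matricellular protein, was at 81.4 and 109 CPM in WT-Veh and 2.59 to 5.70 elsewhere, and Zfp36, which destabilises cytokine mRNA, at 119.8 and 85.5 CPM against 3.90 to 8.01. Their interactions were 5.22 ± 0.34 and 4.89 ± 0.37 (adjusted p = 0.000838 and 0.00108). Fosl2, the antiproliferative Btg2 and the phosphatase Dusp1 gave 2.61 ± 0.26, 3.31 ± 0.39 and 1.998 ± 0.27 (adjusted p = 0.00215, 0.00340 and 0.00538). These 6 genes were called whichever library was left out, with adjusted p up to 0.0463.

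Immediate early promoters are known for the cyclic AMP element CRE and the serum response element, or CArG box. In the same 250 bases CRE, searched as TGACGTCA, which reads the same on both strands, was held by 1.55% of promoters and 1.77% of genes, and the CArG box by 1.47% and 1.62%. Of the 17 matched higher calls, 2 held CRE (Dusp1 and Btg2) and 2 the CArG box (Zfp36 and Egr2), and of the 30 tested members matched, 3 held each. These 4 promoters are shown because they are the called members with either element, in capitals (GRCm38.p6, chr17:26508473-26508722 minus, chr1:134079156-134079405 minus, chr7:28379229-28379478 minus and, for 1 of several starts of Egr2, chr10:67537619-67537868 plus). The matched window of Fos holds neither string of letters, and sites farther upstream or spelled otherwise were not searched.
Dusp1: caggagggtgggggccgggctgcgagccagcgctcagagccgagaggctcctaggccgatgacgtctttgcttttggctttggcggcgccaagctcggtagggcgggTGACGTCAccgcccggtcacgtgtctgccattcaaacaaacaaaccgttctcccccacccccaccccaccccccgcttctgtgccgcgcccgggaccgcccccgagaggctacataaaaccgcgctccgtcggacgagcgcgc
Btg2: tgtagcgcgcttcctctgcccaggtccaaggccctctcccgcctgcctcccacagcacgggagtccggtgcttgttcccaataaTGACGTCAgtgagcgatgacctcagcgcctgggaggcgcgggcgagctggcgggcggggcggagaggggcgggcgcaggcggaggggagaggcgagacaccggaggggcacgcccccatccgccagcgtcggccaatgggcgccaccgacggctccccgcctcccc
Zfp36: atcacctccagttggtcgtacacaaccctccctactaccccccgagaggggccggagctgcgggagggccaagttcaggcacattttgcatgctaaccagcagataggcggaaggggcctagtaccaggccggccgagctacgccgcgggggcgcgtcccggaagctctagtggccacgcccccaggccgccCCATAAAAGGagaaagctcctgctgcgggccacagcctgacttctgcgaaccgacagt
Egr2: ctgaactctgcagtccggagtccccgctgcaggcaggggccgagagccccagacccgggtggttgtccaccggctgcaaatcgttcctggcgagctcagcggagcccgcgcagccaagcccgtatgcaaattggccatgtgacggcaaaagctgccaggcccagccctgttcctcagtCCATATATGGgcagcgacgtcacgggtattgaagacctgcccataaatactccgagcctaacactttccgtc

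Nerve injury genes, which sensory neurons and their glia switch on after axotomy, had 5 higher and 0 lower calls among 26 (6.19% and 3.17% of all genes). Their median interaction was 0.97. Atf3, the standard marker of an injured neuron, was at 117 and 86.8 CPM in WT-Veh, 22.5 and 32.8 in WT-CFA, 15.2 and 17.6 in iKO-Veh and 18.8 and 16.7 in iKO-CFA. The WT-Veh libraries were the high ones, and the interaction was 1.99 ± 0.34 (adjusted p = 0.0125). Gal, the neuropeptide galanin, was at 97.6 and 57.2 CPM in WT-Veh, 20.5 and 24.7 in WT-CFA, 9.34 and 8.84 in iKO-Veh and 10.2 and 13.05 in iKO-CFA, and gave 2.14 ± 0.38 (adjusted p = 0.0149), and the peptide Npy gave 4.92 ± 1.08 (0.0303). Socs3, an inhibitor of cytokine signalling, was at 102 and 94.8 CPM in WT-Veh and 11.2 to 16.3 elsewhere (3.37 ± 0.25, adjusted p = 0.00108). Anxa1, an anti-inflammatory phospholipid-binding protein, was instead highest in iKO-CFA, at 39.1 and 26.5 CPM in WT-Veh, 5.31 and 12.7 in WT-CFA, 9.56 and 7.26 in iKO-Veh and 62.7 and 64.9 in iKO-CFA, with an interaction of 4.79 ± 0.55 (adjusted p = 0.00323). Gal and Npy were the 2 higher calls among 20 neuropeptide genes, where 0 were lower and the median interaction was -0.48. Of these 5 the call was lost in 3 without WT-Veh 1, 1 without WT-Veh 2, 3 without iKO-Veh 1, 3 without iKO-Veh 2, 2 without iKO-CFA 1 and 3 without iKO-CFA 2 (adjusted p up to 0.167), while Socs3 and Anxa1 held without each library.

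Nuclear noncoding RNAs had 10 higher calls among 17 (6.19% of all genes), with a median interaction of 2.32. Neat1, the scaffold of paraspeckles, was at 785 and 459 CPM in WT-Veh, 6.25 and 9.48 in WT-CFA, 4.31 and 6.97 in iKO-Veh and 16.6 and 8.11 in iKO-CFA, with an interaction of 7.44 ± 0.64 (adjusted p = 0.00168). Malat1 of nuclear speckles, the imprinted Meg3, Miat and Snhg11 gave 4.55 ± 0.41, 5.92 ± 0.68, 4.82 ± 0.48 and 4.76 ± 0.33 (adjusted p = 0.00168, 0.00323, 0.00212 and 0.00108). The summed level of the list was 5287 to 5436 CPM in WT-Veh and 666 to 1041 in the 6 others with no overlap. Ftx, a regulator of X inactivation, gave 4.54 ± 0.66 (adjusted p = 0.00750) and lost its call without WT-Veh 1 (0.0654), unlike the other 5. Nuclear RNA thus moved with the WT-Veh values of the immune and immediate early genes, and its part in them was not tested.

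**Figure D4:**
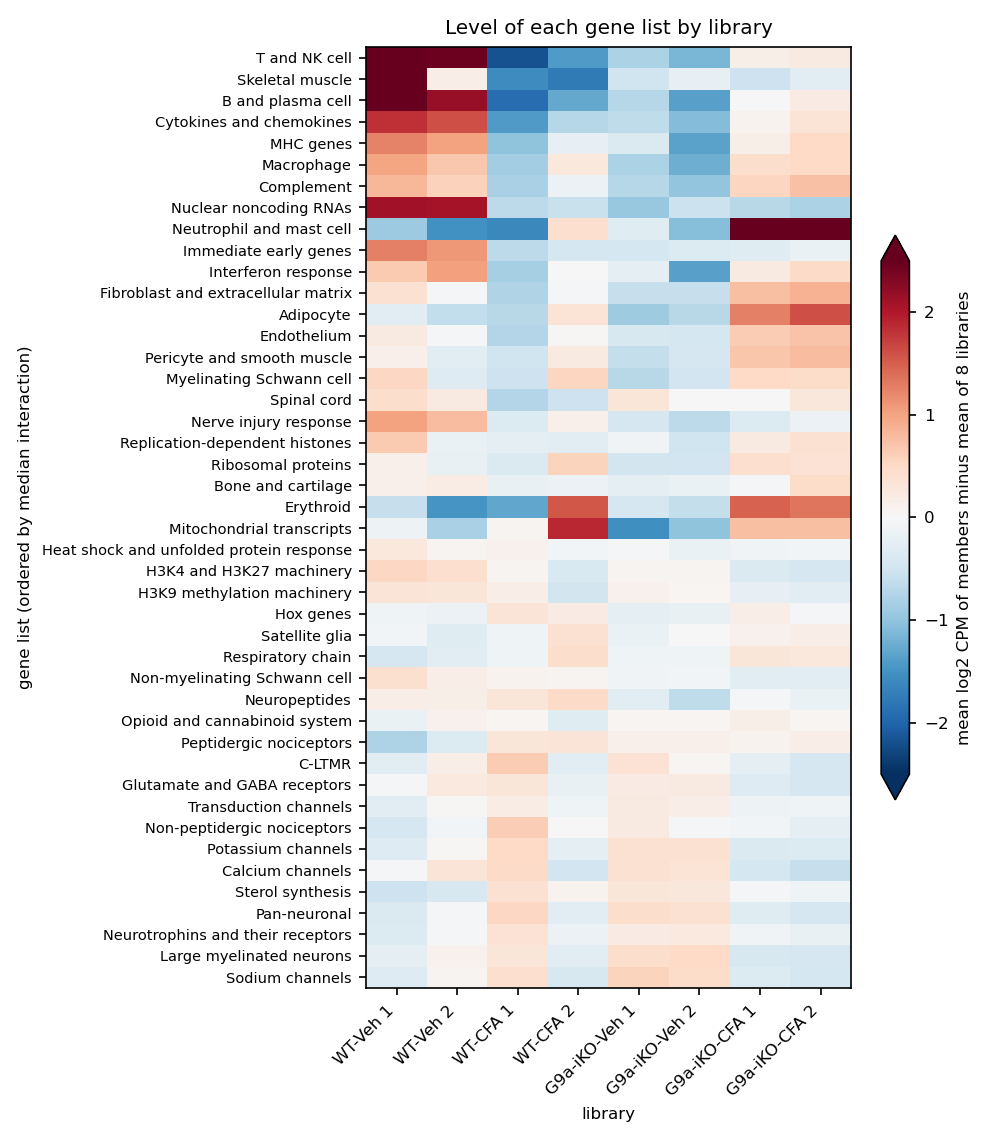
Each row is a gene list, each column a library, and colour gives the mean log2 CPM of the list's tested members minus the mean over the 8 libraries. T and NK, B and plasma, cytokine, MHC, immediate early and nuclear noncoding lists were red in WT-Veh, neutrophil and adipocyte lists in iKO-CFA (most strongly neutrophil), red cell genes in WT-CFA 2 and iKO-CFA, skeletal muscle in WT-Veh 1, and the neuronal lists near the bottom were mostly pale red in WT-CFA 1 and iKO-Veh.

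Few genes changed with CFA in iKO by the test over all groups. Vwf, the endothelial clotting factor, and Eln, the elastic fibre protein elastin, passed in both genotypes in opposite directions. Eln was at 6.84 and 6.97 CPM in WT-Veh, 3.31 and 3.97 in WT-CFA, 2.77 and 4.02 in iKO-Veh and 18.6 and 19.8 in iKO-CFA. It fell with CFA in WT by 0.92 ± 0.26 and rose in iKO by 2.501 ± 0.27 on the log2 scale (adjusted p = 0.0422 and 0.0382), with iKO-CFA above all 6 other libraries, for an interaction of 3.43 ± 0.37 (adjusted p = 0.00243). Vwf was at 35.5 and 29.7 CPM in WT-Veh, 17.5 and 18.2 in WT-CFA, 21.5 and 21.2 in iKO-Veh and 67.0 and 72.9 in iKO-CFA. It fell in WT by 0.87 ± 0.17 and rose in iKO by 1.71 ± 0.17 (adjusted p = 0.0142 and 0.0382), and the interaction was 2.58 ± 0.24 (adjusted p = 0.00176). Clec3b, the plasminogen-binding protein tetranectin, was at 1.88 and 1.55 CPM in WT-Veh, 1.34 and 1.71 in WT-CFA, 1.59 and 0.775 in iKO-Veh and 14.3 and 15.5 in iKO-CFA. It rose in iKO by 3.64 ± 0.39 (adjusted p = 0.0382), while the WT response of -0.17 ± 0.38 did not pass (0.793), and its interaction was 3.81 ± 0.53 (adjusted p = 0.00640).

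Pi16, a marker of adventitial fibroblasts, and Erdr1 also had an iKO response that passed and a WT response that did not. Pi16 was at 1.95 to 2.84 CPM in the 6 other libraries and at 16.6 and 17.6 CPM in iKO-CFA, and rose in iKO by 2.61 ± 0.29 (2.66 ± 0.40 for the interaction, adjusted p = 0.00866). Erdr1 was at 8.88 and 9.14 CPM in WT-Veh, 4.94 and 5.41 in WT-CFA, 1.18 and 1.15 in iKO-Veh and 5.63 and 7.65 in iKO-CFA. It was the exception in that iKO-Veh stood below all other libraries, while iKO-CFA lay within the range of WT, and its interaction was 3.31 ± 0.39 (adjusted p = 0.00340). Among the 5 genes from Eln to Pi16 the interaction was lost for Pi16 in 2 fits, without iKO-Veh 2 (adjusted p = 0.0572) and without iKO-CFA 2 (0.0524). Of the 8 genes called in iKO, Cfd is given with the fat genes. The last pair, named after their values were seen, were Cd177, a neutrophil surface protein, with an interaction of 2.21 ± 0.68 that did not pass (adjusted p = 0.0720), and the gene model 2610507I01Rik, with 5.46 ± 0.73 (adjusted p = 0.00538). The iKO response of the 5 genes from Eln to Pi16 did not pass without a WT-Veh or an iKO library, and it did in the iKO libraries fitted alone (adjusted p = 3.9e-07 to 3.26e-05). The granulocyte sum given above was also highest in iKO-CFA, and the red cell sum was high there and in WT-CFA 2; their part was not tested.

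Matrix and vessel genes were called in 1 direction only, higher, where 6.19% of all genes were called higher. In the fibroblast and matrix list 13 of 28 were called higher (median interaction 1.74), among them Thbs1, thrombospondin, at 4.49 ± 0.43, and the collagens Col5a2, Col6a1 and Col6a3 at 2.18 ± 0.35, 2.07 ± 0.35 and 2.13 ± 0.38 (adjusted p = 0.00191, 0.0103, 0.0127 and 0.0139). Col6a1 was at 46.3 and 36.9 CPM in WT-Veh, 20.4 and 33.8 in WT-CFA, 25.5 and 23.4 in iKO-Veh and 66.9 and 66.6 in iKO-CFA, highest in iKO-CFA, whereas Thbs1 and Col5a2 were highest in WT-Veh. In endothelium 6 of 23 passed (median 1.47), including the adhesion molecule Pecam1 (2.29 ± 0.37), the TGF-beta coreceptor Eng (1.67 ± 0.36), the transcription factors Erg (2.39 ± 0.57) and Sox18 (2.42 ± 0.47) and the fenestral protein Plvap (2.16 ± 0.49), with adjusted p of 0.0102, 0.0286, 0.0378, 0.0200 and 0.0339. Plvap was at 7.10 and 7.09 CPM in WT-Veh, 4.51 and 10.2 in WT-CFA, 9.04 and 12.2 in iKO-Veh and 44.1 and 54.0 in iKO-CFA. WT-CFA 1 was the lowest library for Plvap and iKO-CFA the highest. Pericyte and smooth muscle genes had 0 of 15 called by edgeR, 3 at an unadjusted p under 0.05 and 2 called by DESeq2, with the smallest p at Notch3 (1.27 ± 0.37) and Abcc9 (1.56 ± 0.48), adjusted p 0.0640 and 0.0715. Of the 9 matrix and vessel genes named here besides Eln, Vwf and Pi16, the call was lost in 8 without WT-Veh 1, 3 without WT-Veh 2, 7 without iKO-Veh 1, 8 without iKO-Veh 2, 7 without iKO-CFA 1 and 8 without iKO-CFA 2 (adjusted p up to 0.175).

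Adipocyte genes had 4 higher calls and 1 lower call among 16 (6.19% and 3.17% of all genes). Their median interaction was 1.69, or 1.94 with groups at 0 set to 3 reads. Cfd, the fat-derived protease adipsin, was at 0.536 and 0.774 CPM in WT-Veh, 1.39 and 5.92 in WT-CFA, 0.392 and 0.115 in iKO-Veh and 28.8 and 44.0 in iKO-CFA. It rose with CFA in both genotypes, by 2.45 ± 0.69 in WT and 7.11 ± 0.80 in iKO (adjusted p = 0.0432 and 0.0382), and by more in iKO (interaction 4.65 ± 1.03, adjusted p = 0.0311). Fabp4, the fatty acid carrier of fat and capillaries, was at 4.32 and 1.88 CPM in WT-Veh, 2.003 and 4.38 in WT-CFA, 1.62 and 0.718 in iKO-Veh and 25.4 and 29.2 in iKO-CFA, and Car3, a carbonic anhydrase of fat and muscle, at 19.6 to 27.7 CPM in iKO-CFA and 2.22 to 11.96 elsewhere. Their interactions were 4.49 ± 0.75 and 3.50 ± 0.77, and that of Plin4 4.88 ± 0.90 (adjusted p = 0.0119, 0.0300 and 0.0168). Scd1, the stearoyl desaturase that neurons and glia also express, was the lower call, at -1.06 ± 0.26 (adjusted p = 0.0422), and dominates the summed level of the list. Of the 5 genes the call was lost in 5 without WT-Veh 1, 2 without WT-Veh 2, 3 without iKO-Veh 1, 4 without iKO-Veh 2, 4 without iKO-CFA 1 and 5 without iKO-CFA 2 (adjusted p up to 0.204), and with all libraries in 1 with no filter, 1 with a filter at 5 CPM, 1 with the newer edgeR estimates and 1 with limma-voom (up to 0.0782).

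Glial lists held 1 or 2 calls each, where 6.19% of all genes were called higher and 3.17% lower. In myelinating Schwann cells 1 of 20 was higher, Egr2, the myelin regulator, at 2.06 ± 0.47 (adjusted p = 0.0342), in non-myelinating Schwann cells 1 of 12, Gfap, at 31.2 and 27.3 CPM in WT-Veh against 1.18 to 4.31 elsewhere (4.02 ± 0.48, adjusted p = 0.00357), and in satellite glia 2 of 20 were lower, Aldoc (-1.42 ± 0.27) and Ptprz1 (-0.91 ± 0.24), with adjusted p of 0.0187 and 0.0477. The median interaction was 1.08 for myelinating Schwann cells, with 20 of 20 members positive, and -0.36 for non-myelinating Schwann cells. The median of the satellite glia list, -0.19, turned positive under a filter of 5 CPM. Gfap, the intermediate filament of reactive glia, was called whichever library was left out, and of the 4 genes the call was lost in 3 without WT-Veh 1, 1 without WT-Veh 2, 3 without iKO-Veh 1, 3 without iKO-Veh 2, 3 without iKO-CFA 1 and 3 without iKO-CFA 2 (adjusted p up to 0.224), and with all libraries in 1 with RLE scaling, 1 with no filter, 1 with a filter at 5 CPM and 1 without mitochondrial transcripts (up to 0.0882).

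Sterol synthesis had the largest share of lower calls of any list, 13 of 25 (3.17% of all genes; median interaction -1.09), with 0 higher. Dhcr7, which makes cholesterol from its last precursor, was at 64.1 and 72.9 CPM in WT-Veh, 173 and 138 in WT-CFA, 180.3 and 168 in iKO-Veh and 127 and 116 in iKO-CFA. The WT-Veh libraries lay below the 6 others, and the interaction was -1.70 ± 0.26 (adjusted p = 0.00926). Sqle, the squalene epoxidase, Nsdhl, a sterol dehydrogenase, and Mvd of the mevalonate pathway gave -1.58 ± 0.27, -1.14 ± 0.25 and -1.58 ± 0.33 (adjusted p = 0.0135, 0.0305 and 0.0268). Sqle was at 149 and 168 CPM in WT-Veh, 388 and 297 in WT-CFA, 344 and 345 in iKO-Veh and 246 and 251 in iKO-CFA. Of the 4 the call was lost in 4 without WT-Veh 1, 2 without WT-Veh 2, 4 without iKO-Veh 1, 4 without iKO-Veh 2, 4 without iKO-CFA 1 and 4 without iKO-CFA 2 (adjusted p up to 0.163), and of the 25 members 0 were called without WT-Veh 1 or without any of the 4 iKO libraries.

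Other metabolic and protein genes were called near or below the shares of all genes, 6.19% higher and 3.17% lower. The ribosomal list still had a median interaction of 0.71, with 70 of 77 members positive and 23 at an unadjusted p under 0.05. In the respiratory chain 1 of 61 was higher and 2 were lower, in ribosomal proteins 2 of 77 were higher, in the heat shock and unfolded protein list 1 of 28 went each way, and among 13 mitochondrial transcripts 0 passed by edgeR or DESeq2, with 0 at an unadjusted p under 0.05 by edgeR. Ndufs5, a complex I subunit, was at 63.9 and 71.3 CPM in WT-Veh, 12.1 and 17.9 in WT-CFA, 98.3 and 102 in iKO-Veh and 143 and 141 in iKO-CFA. WT-CFA alone was low, with an interaction of 2.68 ± 0.30 (adjusted p = 0.00302). Its pseudogene Ndufs5-ps was at 91.4 and 130.3 CPM in WT-CFA and 0.245 to 1.17 in the 6 others (-6.02 ± 0.70, adjusted p = 0.00331). Reads of near-identical copies can be split by a counter, so both values are uncertain. Atp5a1 and Uqcrc1 were the lower ones (-1.06 ± 0.28 and -1.003 ± 0.25, adjusted p = 0.0481 and 0.0429), and Rps16 and Rps3a1 the higher ribosomal ones (1.39 ± 0.34 and 1.21 ± 0.29, adjusted p = 0.0394 and 0.0382). The pseudogene Rps16-ps2, with which Rps16 can share reads, gave 0.99 ± 0.53 (adjusted p = 0.237). The cochaperone Bag3 was lower at -1.88 ± 0.46 and Creld2, an endoplasmic reticulum protein, higher at 2.76 ± 0.38 (adjusted p = 0.0419 and 0.00596). Of the mitochondrial transcripts ATP8 and ND3 had the smallest p, with 2.22 ± 1.01 and 1.78 ± 0.90 (adjusted p = 0.173 and 0.210). Of the 8 called genes the call was lost in 5 without WT-Veh 1, 4 without WT-Veh 2, 5 without iKO-Veh 1, 5 without iKO-Veh 2, 5 without iKO-CFA 1 and 5 without iKO-CFA 2 (adjusted p up to 0.204), and with all libraries in 1 with no filter, 3 with a filter at 5 CPM and 1 with the newer edgeR estimates (up to 0.0647).

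Among 24 genes of H3K9 methylation 1 was higher, Jmjd1c, a demethylase family member (1.48 ± 0.24, adjusted p = 0.0113). Among 24 of H3K4 and H3K27 methylation 2 were higher, the H3K27 demethylase Kdm6b (1.90 ± 0.24, adjusted p = 0.00463) and the H3K27 methyltransferase Ezh2 (2.79 ± 0.67, adjusted p = 0.0391). These shares of 4.17% and 8.33% lay near the 6.19% of all genes. Kdm6b was at 46.3 and 44.6 CPM in WT-Veh, 13.1 and 12.7 in WT-CFA, 17.1 and 15.6 in iKO-Veh and 16.4 and 18.4 in iKO-CFA, high in WT-Veh alone, and was called whichever library was left out, while of the 3 genes the call was lost in 2 without WT-Veh 1, 1 without WT-Veh 2, 2 without iKO-Veh 1, 2 without iKO-Veh 2, 2 without iKO-CFA 1 and 1 without iKO-CFA 2 (adjusted p up to 0.189). Of 31 Hox genes, which keep the positional identity of neurons and connective tissue, 3 were lower (3.17% of all genes), Hoxa10 (-1.17 ± 0.26), Hoxb5 (-1.97 ± 0.42) and Hoxd1 (-1.19 ± 0.28), with adjusted p of 0.0311, 0.0268 and 0.0367. Of the 3 the call was lost in 3 without WT-Veh 1, 3 without WT-Veh 2, 3 without iKO-Veh 1, 3 without iKO-Veh 2, 3 without iKO-CFA 1 and 3 without iKO-CFA 2 (adjusted p up to 0.184), and with all libraries in 2 with a filter at 5 CPM (up to 0.0587). Of the replication-dependent histones 0 of 24 passed by edgeR, 3 had an unadjusted p under 0.05 and 1 passed by DESeq2, with the smallest p at H2bc11 (-1.71 ± 0.48) and H2bc6 (-1.003 ± 0.34), adjusted p 0.0569 and 0.0883.

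Of the remaining tissue lists, skeletal muscle had 0 of 17 called although its median interaction was 6.24, and its genes were high in WT-Veh 1 and not in WT-Veh 2. At an unadjusted p under 0.05 there were 11 by edgeR, DESeq2 called 8, and 13 passed by edgeR without WT-Veh 2. Mb, myoglobin, was at 20.8 CPM in WT-Veh 1 and 0 to 0.783 in the 7 others (adjusted p = 0.0505), and Tnni2, fast troponin, at 29.8 CPM and 0.147 to 0.864 (0.0595). In the spinal cord list 1 of 10 passed, Gad1, the GABA-synthesising enzyme, at 1.78 and 1.31 CPM in WT-Veh, 0.561 and 0.274 in WT-CFA, 16.8 and 15.04 in iKO-Veh and 18.2 and 16.7 in iKO-CFA. All iKO libraries lay far above all WT libraries, within which the CFA pair was lower, and the interaction was 1.97 ± 0.46 (adjusted p = 0.0348). In bone and cartilage 1 of 13 passed, Acp5, an osteoclast and macrophage phosphatase (3.90 ± 0.88, adjusted p = 0.0324). Gad1 and Acp5 were both called higher, where 6.19% of all genes were. Of the pair Gad1 and Acp5 the call was lost in 2 without WT-Veh 1, 1 without WT-Veh 2, 2 without iKO-Veh 1, 2 without iKO-Veh 2, 2 without iKO-CFA 1 and 2 without iKO-CFA 2 (adjusted p up to 0.153), and with all libraries in 1 with limma-voom (up to 0.0816).

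**Figure D5:**
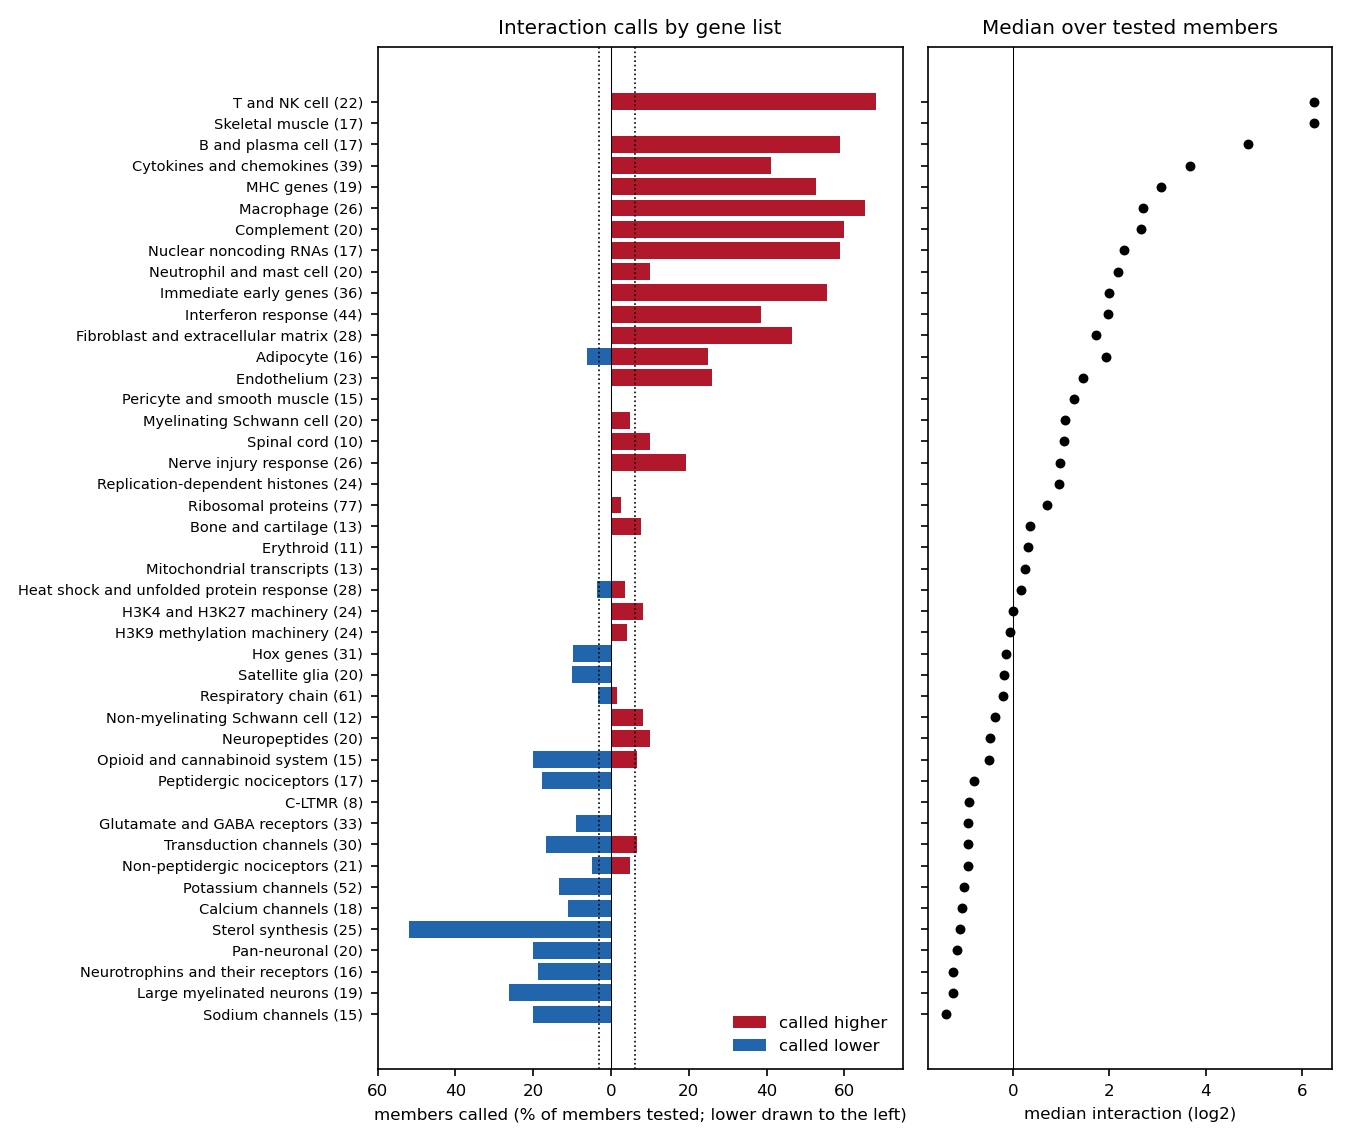
Left, the percentage of the tested members of each list (number in brackets) with an interaction called higher in iKO (red, drawn to the right) or lower (blue, to the left), with dotted lines at the shares over all tested genes, 6.19% and 3.17%. Right, the median interaction of the list on the log2 scale, with groups at 0 reads set to 3. T and NK, macrophage, complement, B and plasma and nuclear noncoding lists had the most higher calls and sterol synthesis the most lower calls, and skeletal muscle combined a high median with 0 calls.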

How the data were processed

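The data were read counts per gene from RNA sequencing of dorsal root ganglia, 8 libraries in 4 groups of 2, with 25780 genes in each file. The counts as deposited were whole reads per gene with no normalization. Per the submitters' processing notes, HISAT2 2.2.1, SAMtools 1.19.2, featureCounts 2.0.6 and DESeq2 were used, with the mouse build GRCm39. The annotation, the use of strand and the filters were not given in the sources used here, so a gene and its antisense or overlapping partner may share reads. Each library's group came from its title.

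Genes with low counts were removed by filterByExpr, which left 20235. One model over all 4 groups was fitted with edgeR 4.0.16 (R 4.3.3, TMM scaling, legacy quasi-likelihood, common dispersion 0.0753, prior degrees of freedom 4.68), and the interaction was tested as a contrast in both directions, with Benjamini-Hochberg adjustment over all tested genes at 0.05. The same fit gave the CFA response in each genotype and the genotype difference under each treatment. Values after ± are standard errors of the log2 value, and ranges of CPM are over libraries. The script was tested on simulated counts. The alternatives were RLE scaling, no filter, a filter at a mean of 5 CPM, the newer edgeR estimates (legacy = FALSE), DESeq2 1.42.0, limma-voom (limma 3.58.1), a replicate block, no mitochondrial transcripts and leaving out each library, and, chosen after seeing the data, leaving out WT-Veh 1 with WT-CFA 2 and fitting the iKO libraries alone.

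The contrast, the 44 gene lists and the naming rule were chosen with earlier results of these data known. Named genes were Ehmt2, Trpa1 and Trpv1, the 10 largest called interactions each way above a mean log2 CPM of 1 and again above 5, called genes whose iKO response also passed, and up to 6 called members of each list with the smallest p, or the 2 smallest where 0 passed. Some genes the rule named are not reported here. Median interactions of lists stand beside a median of -0.04 over all tested genes. Promoter sequences, 250 bases before a start, came from RefSeq on GRCm38.p6, which is not the build of the files, so no gene coordinates are given. Counts of 0 carry no fold, and 3 reads over a group stood in for 0 where stated.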

Additional observations from a re-analysis of the deposited data

Results flagged for a closer look

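The response to CFA differed between genotypes at 1895 genes, by the test of the difference itself. Among the genes named for an iKO response that passed while the WT response did not, or passed in the opposite direction, the interaction was 3.81 for Clec3b, 3.43 for Eln, 3.31 for Erdr1, 2.66 for Pi16 and 2.58 for Vwf. For the irritant and heat channels it was -1.56 for Trpa1 and -1.15 for Trpv1.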

How the results depend on the processing

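The count of 1895 interaction calls became 1185 with a filter at a mean of 5 CPM, 4133 with DESeq2, 1062 with the replicate block, 7869 without WT-Veh 1 and WT-CFA 2 together, and 212 to 8366 when 1 library was left out. Higher calls (1253) became 2282 with DESeq2, 3225 without that pair and 209 to 3749 with 1 library left out. Lower calls (642) became 300.0 at 5 CPM, 1851 with DESeq2, 222 with the block, 4644 without the pair and 3 to 4617 with 1 library left out. Calls in which WT-Veh stood apart on the side of the call (1361) became 894 at 5 CPM, 2497 with DESeq2, 813 with the block, 3628 without the pair and 177 to 3596 with 1 library left out, and calls among list members (223) became 402 with DESeq2, 705 without the pair and 46 to 703 with 1 library left out. The cause was not tested. The block left 79.1% higher and the 5 CPM filter 74.7%, against 66.1%. The 5 CPM filter raised the interactions of the 12148 genes it kept by a median of 0.24. Replicate numbers did not pair the libraries: same-numbered deviations correlated at -0.144 between WT-Veh and WT-CFA and at -0.0290 to 0.0275 between other groups. Under the block Trpa1 and Trpv1 had adjusted p of 0.0677 and 0.0740, and 10 of the 15 lower channel and receptor genes named lost their call (up to 0.0760). The losses given above with all libraries do not count the block. Under it 5 of 7 transduction channels, 6 of 11 neuron class genes and 6 of 16 largest lower genes lost theirs. So did 5 of 8 metabolic and protein genes, 2 of 5 fat genes and 2 of 4 glial genes. The named injury, granulocyte, matrix and vessel, sterol and Hox genes lost 1 each. The named immediate early, noncoding, lymphoid, macrophage and immune mediator genes kept theirs. Of 3088 alternatives of single named genes, 651 lost the threshold, 38 newly passed it and 2399 stayed on their side, with 0 reversals, and 387 of 748 list counts moved by over 1.5 times. Every contrast rests on 2 libraries per group at 26312614 to 42971823 reads, and shares the residual error of all groups, in which the WT-CFA pair differed by a median of 0.595 on the log2 scale against 0.171 to 0.285 elsewhere.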
